A study of Mus musculus with 18 samples.

Results

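The 40 genes described here act in the G2 phase and in mitosis. Kinesin genes named Kif are not among them, although Cenpe, which encodes a kinesin-family motor of the kinetochore, is. They were chosen by name and matched by symbol to Ensembl identifiers, and all 40 were found among the 47729 genes of the RNA count files. All 40 also passed the filter on low counts that left 15000 tested genes. RNA and acetylation of histone H3 at lysine 9 (H3K9ac, a mark of active promoters) were measured in whole cortex of mouse embryos at embryonic day E15.5. The TSA group received trichostatin A, an inhibitor of histone deacetylases, and the Vehicle group received the carrier alone. Every embryo of both groups had the genotype BAF155 cKO, a conditional knockout of the BAF chromatin remodelling subunit encoded by Smarcc1, so nothing here compares knockout with intact cortex. The sources used here name neither the driver of the deletion nor the dose, the sex or the number of animals behind a sample. There were 4 TSA and 4 Vehicle samples of RNA and 4 TSA and 4 Vehicle samples of H3K9ac chromatin, and since no separate origin of the replicates is stated, the p-values cover the spread between samples alone, which may be technical.

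A dividing cell enters mitosis when cyclin B activates the kinase Cdk1. Condensins and topoisomerase then compact the chromosomes, kinetochores built on centromeric chromatin bind the spindle, and the spindle checkpoint holds back the anaphase-promoting complex (APC/C) until every chromosome is attached. Most of these genes are transcribed in late G2 under the DREAM and MMB-FOXM1 complexes, which act at a promoter element called the CHR, usually beside CCAAT boxes bound by NF-Y. In the embryonic cortex the transcripts mark apical progenitors that divide at the ventricle and basal progenitors that divide away from it. In bulk tissue, fewer dividing cells and less RNA per dividing cell cannot be told apart.

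RNA totals ran from 6733415 to 20400727 counts in TSA and from 12200426 to 15600340 in Vehicle, and the lowest count of any of the 40 genes in any library was 94, for Cdc25c in TSA 1. Smarcc1 itself had 118 to 144 CPM in TSA and 124 to 148 CPM in Vehicle, which does not check the deletion because counts are per whole gene. Xist, the RNA of the inactive X chromosome, had 0.305, 1.47, 0.494 and 2327 CPM in TSA 1 to 4 and 3090, 2071, 1768 and 3118 CPM in Vehicle 1 to 4, so that Xist status differed between the groups in all but TSA 4. All excitatory neuron markers looked for were present and 8 of 8 were called higher in TSA, with summed levels of 2478 to 2946 CPM in TSA and 1410 to 1994 CPM in Vehicle. Of 11 basal progenitor markers 5 rose and 0 fell, with sums of 1036 to 1178 CPM in TSA and 655 to 869 CPM in Vehicle. Of 11 apical progenitor markers 5 rose and 2 fell, with sums of 1974 to 2101 CPM in TSA and 2021 to 2412 CPM in Vehicle. Erythroid markers summed to 207 to 255 CPM in TSA and 333 to 635 CPM in Vehicle, with 3 of 8 tested markers fallen and 0 risen. Of 8 markers of the ganglionic eminence, where interneurons arise, 6 fell and 2 rose, with sums of 490 to 728 CPM in TSA and 913 to 1137 CPM in Vehicle. Microglial markers had 4 of 9 fallen and 0 risen, endothelial markers 2 of 7 and 0, and meningeal markers 1 of 5 tested and 0. Over all tested genes 17.6% fell and 15.4% rose. The fallen shares of apical progenitor markers (18.2%) and meningeal markers (20%) were close to that. No marker of these lists was at 0 in every library, and their part in the changes of the mitosis genes was not tested.

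The promoters of the genes were read first, since they show what the group shares in sequence. RefSeq promoter windows on GRCm38.p6 (the mm10 build), from 250 bases before the annotated start to 50 bases after it, were on hand for 34 of the 40 genes. The CHR was searched as TTTGAA or TTCGAA and the NF-Y site as CCAAT, on both strands, and matches were allowed to overlap. A CHR match lay in 28 of the 34 windows, 82.4%, against 19.4% of all 27025 promoter windows and 13.3% of the 11059 windows of genes tested in RNA. Within 50 bases of the start the share was 76.5% of the 34 genes, against 5.29% of all windows. A CCAAT match lay in 79.4% of the 34 windows, against 37.9% of all windows, and at least 2 matches lay in 55.9%, against 12.2%. A CHR match was found in 12 of 16 windows of genes called in RNA, among them the risen Mki67, and in 16 of 18 windows of genes not called. At least 2 CCAAT matches lay in 68.8% of the called and 44.4% of the uncalled windows. A link between these letters and the RNA change was not tested. Mad2l1, Nuf2 and Birc5, which had 3 of the 4 largest falls, had neither a CHR nor a CCAAT match in their windows. Nusap1, which was not called in RNA, also had neither, and Ccnb1 and Cenpe had a CCAAT match but no CHR match.

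The following windows belong to the called genes with the smallest p-values among those with a CHR match. They are printed in the direction of transcription with the CHR and CCAAT letters in capitals, so that the spacing of the elements can be seen. Spc25 lies at chr2:69206164-69206463 and Cdk1 at chr10:69352863-69353162, both on the minus strand, Ttk at chr9:83834439-83834738 on the plus strand, and Ccnb2 at chr9:70421505-70421804 on the minus strand.
Spc25: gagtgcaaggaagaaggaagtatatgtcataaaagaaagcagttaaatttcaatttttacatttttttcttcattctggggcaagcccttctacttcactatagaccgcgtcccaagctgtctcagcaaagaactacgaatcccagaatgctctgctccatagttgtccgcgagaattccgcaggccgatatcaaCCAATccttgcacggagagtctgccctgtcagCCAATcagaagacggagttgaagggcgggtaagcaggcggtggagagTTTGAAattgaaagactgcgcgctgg
Cdk1: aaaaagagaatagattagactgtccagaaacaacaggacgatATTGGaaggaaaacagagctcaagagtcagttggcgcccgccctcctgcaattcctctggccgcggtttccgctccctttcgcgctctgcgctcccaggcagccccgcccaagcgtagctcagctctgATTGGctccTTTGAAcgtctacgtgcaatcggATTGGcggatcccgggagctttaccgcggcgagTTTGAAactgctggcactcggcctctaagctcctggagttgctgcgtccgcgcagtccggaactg
Ttk: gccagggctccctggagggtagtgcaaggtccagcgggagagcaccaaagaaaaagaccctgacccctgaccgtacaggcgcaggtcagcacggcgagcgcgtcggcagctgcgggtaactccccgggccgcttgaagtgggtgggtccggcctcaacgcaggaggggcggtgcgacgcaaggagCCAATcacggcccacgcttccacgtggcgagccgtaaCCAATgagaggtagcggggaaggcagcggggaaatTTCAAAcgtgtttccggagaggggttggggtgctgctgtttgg
Ccnb2: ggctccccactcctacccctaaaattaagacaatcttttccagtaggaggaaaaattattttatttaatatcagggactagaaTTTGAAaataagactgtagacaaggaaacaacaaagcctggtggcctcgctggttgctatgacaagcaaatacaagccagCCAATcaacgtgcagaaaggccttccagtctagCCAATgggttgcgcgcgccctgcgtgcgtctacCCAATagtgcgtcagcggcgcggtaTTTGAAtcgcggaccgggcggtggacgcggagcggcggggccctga

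In these 4 windows the CHR match nearest to the start began 24 bases after it in Spc25, 15 bases before it in Cdk1, 7 bases after it in Ttk and 4 bases after it in Ccnb2. Each had at least 2 CCAAT matches upstream of that CHR. The nearest pair stood 23 and 55 bases before the start in Spc25, 48 and 80 in Cdk1, 28 and 65 in Ttk and 21 and 54 in Ccnb2. A match of letters is a description and not a measured binding site.

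TSA cortex had less RNA of a subset of the mitosis genes, led by the checkpoint gene Mad2l1, the kinetochore genes Spc25 and Nuf2 and the kinase gene Cdk1. The other NDC80 subunit gene among the 40 and both cyclin B genes also fell, by less. Of the 40 genes, 15 fell, 1 rose and 24 were not called, at a Benjamini-Hochberg adjusted p under 0.05 over all tested genes in edgeR's quasi-likelihood test. The fallen genes made up 37.5% of the group, against 17.6% of all tested genes, and the single risen gene 2.5%, against 15.4%. The median log2 fold change was −0.22 over the 40 genes and −0.01 over all tested genes, and single genes ran from −1.04 to 0.52. In 12 of the 40 genes all 4 TSA libraries lay below all 4 Vehicle libraries, against 17.4% of all tested genes, and in 0 they lay above, against 14.9%.

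**Figure D1:**
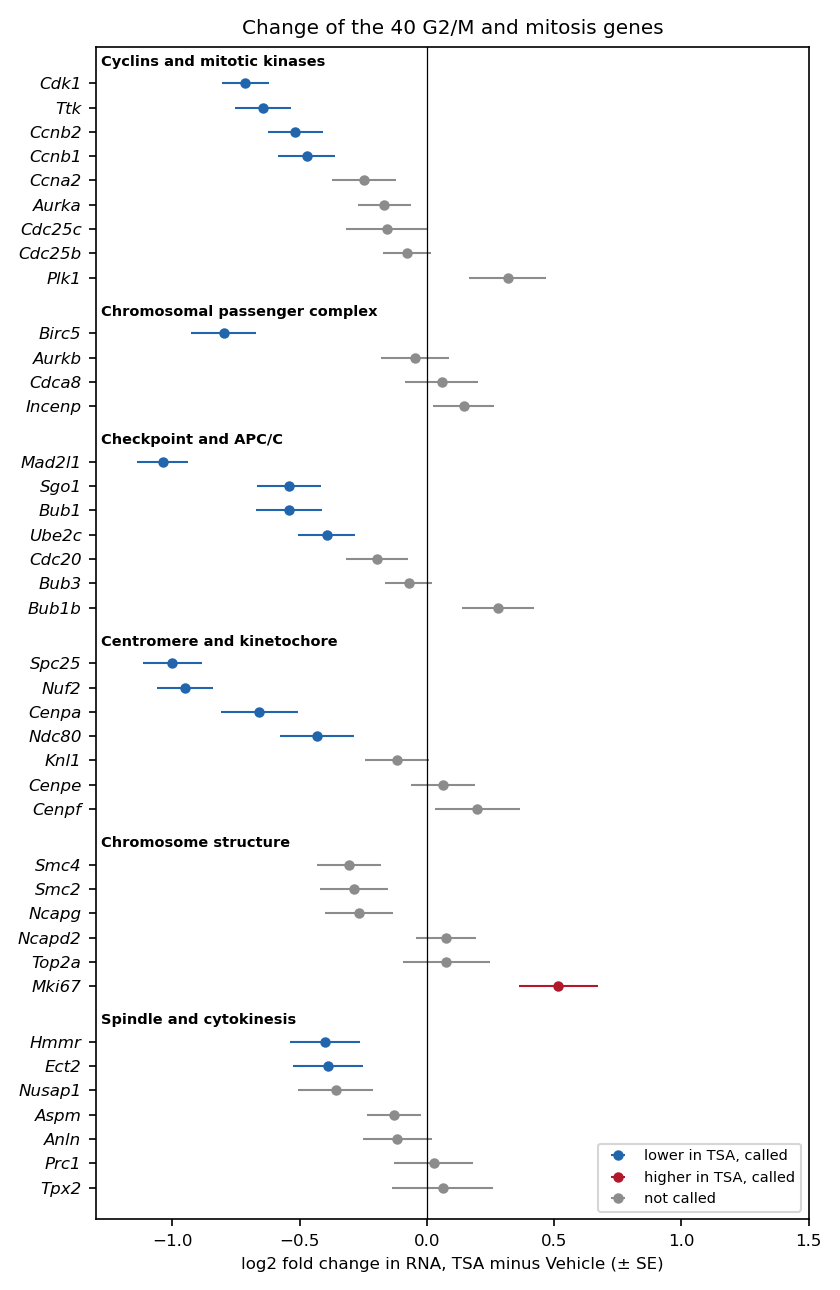
Log2 fold change in RNA (TSA minus Vehicle) of the 40 genes, grouped by role, with bars for the standard error (4 libraries per group); blue and red points passed an edgeR adjusted p of 0.05. The 15 blue points lie between −1.04 and −0.39, and Mki67 is the red point at 0.52.

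Among the cyclins and mitotic kinases 4 of 9 genes fell and 0 rose. Cdk1, the kinase that drives mitotic entry (chromosome 10, 69335146 to 69352912), had 46.9, 52.1, 51.7 and 58.6 CPM in TSA 1 to 4, against 80.9, 91.0, 80.2 and 92.4 CPM in Vehicle 1 to 4. The groups stood well apart, with a log2 change of −0.71 ± 0.09 (SE; adjusted p = 9.85e-05 in edgeR). Ttk, which encodes the checkpoint kinase Mps1, had 24.997, 24.0, 24.5 and 27.9 CPM in TSA and 39.3, 47.1, 36.0 and 36.2 CPM in Vehicle, a change of −0.64 ± 0.11 (edgeR adjusted p = 0.000591). The cyclin B genes fell with smaller changes. Ccnb2 had 27.6, 25.8, 25.1 and 27.4 CPM in TSA and 32.6, 44.5, 38.3 and 35.8 CPM in Vehicle (−0.52 ± 0.11, edgeR adjusted p = 0.00245). Ccnb1 had 23.6, 19.5, 22.4 and 22.5 CPM in TSA and 29.2, 35.3, 27.3 and 29.8 CPM in Vehicle (−0.47 ± 0.11, edgeR adjusted p = 0.00513). In both cyclin genes every TSA library was below every Vehicle library.

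The other members of this set were not called. Ccna2, the cyclin of S phase and early mitosis, changed by −0.25 ± 0.13 on the log2 scale, and Aurka, the spindle pole kinase, by −0.17 ± 0.10. The phosphatase genes Cdc25b and Cdc25c, whose products activate Cdk1, had changes of −0.08 ± 0.09 and −0.16 ± 0.16. Plk1, a kinase of mitotic entry, was the single member with a positive value, at 23.9, 22.4, 25.1 and 31.7 CPM in TSA and 20.6, 26.1, 20.04 and 16.1 CPM in Vehicle (0.32 ± 0.15, edgeR adjusted p = 0.122). Its groups overlapped, since Vehicle 2 lay within the TSA range and the other Vehicle libraries below it. Without Vehicle 2 Plk1 was called as risen, as it was when each library's trend over genomic span was removed.

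The chromosomal passenger complex holds the kinase Aurora B, its scaffold INCENP and the targeting subunits survivin and borealin at centromeres and later at the midzone. Birc5, which encodes survivin (chromosome 11, 117849237 to 117855743), had 24.1, 25.6, 22.1 and 32.3 CPM in TSA 1 to 4, against 49.0, 44.995, 38.2 and 49.2 CPM in Vehicle 1 to 4. The groups did not overlap, and the log2 change was −0.80 ± 0.13 (edgeR adjusted p = 0.000371). The genes of the 3 partners were not called, with changes of −0.05 ± 0.13 for Aurkb, 0.14 ± 0.12 for Incenp and 0.06 ± 0.14 for Cdca8, which encodes borealin. To set genes of 1 complex against each other within each library, log2 ratios of counts were taken for 24 pairs. In 9 of the 24 pairs the groups did not overlap, 3 of 6 in the passenger complex, 2 of 3 in NDC80, 4 of 6 among checkpoint genes, 0 of 3 for Cdk1 and the cyclin B genes and 0 of 6 for condensin. No pair passed after adjustment, but with 4 libraries against 4 no single pair could pass by itself, however wide its separation. Pairs within a complex share genes, and each of the 3 passenger pairs without overlap holds Birc5. The share over gene pairs at large was not computed. Among single tested genes, all TSA libraries lay below all Vehicle libraries in 17.4% and above them in 14.9%. The 9 pairs take both directions together, and so are to be set beside both of these shares. The groups overlapped in 10156 of the 15000 tested genes. The log2 ratio of Aurkb to Birc5, chosen for display after its values were seen, was 0.65, 0.68, 0.64 and 0.60 in TSA 1 to 4, against −0.12, 0.17, −0.07 and −0.48 in Vehicle 1 to 4. The ratio was higher in each TSA library than in any Vehicle library. Its two-sided exact permutation p was 0.0286, the smallest that 4 against 4 allows. The adjusted p was 0.0763 over the 24 pairs of genes compared within complexes. Every pair without overlap has these same values, so they do not grade the separation of single pairs.

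In the set of checkpoint and APC/C genes 4 of 7 fell and 0 rose. Mad2l1, which encodes the checkpoint protein MAD2 (chromosome 6, 66535221 to 66541107), had the largest fall of the 40 genes. It had 33.7, 36.4, 34.0 and 38.1 CPM in TSA, against 64.6, 71.8, 70.5 and 85.9 CPM in Vehicle, a log2 change of −1.04 ± 0.10 (edgeR adjusted p = 1.63e-05). No library of either group came near the other group. Bub1, a checkpoint kinase gene, had 33.4, 40.4, 39.9 and 50.3 CPM in TSA and 53.8, 73.3, 59.0 and 54.0 CPM in Vehicle (−0.54 ± 0.13, edgeR adjusted p = 0.00541). Sgo1, which protects centromeric cohesin, had 16.004, 20.4, 19.9 and 23.3 CPM in TSA and 30.2, 33.7, 27.1 and 26.0 CPM in Vehicle (−0.54 ± 0.13, edgeR adjusted p = 0.00482). In Bub1 the highest TSA library, TSA 4, was close to the lowest Vehicle library, and in Sgo1 likewise. Ube2c, the ubiquitin-conjugating enzyme of the APC/C, had 36.4, 34.2, 35.3 and 38.4 CPM in TSA and 43.4, 58.0, 47.1 and 40.7 CPM in Vehicle (−0.39 ± 0.11, edgeR adjusted p = 0.0144). The groups of Ube2c did not overlap, but the call ended without TSA 2 (edgeR adjusted p = 0.0569) and with the trend over genomic span removed (0.323).

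Partners of the fallen checkpoint genes had other values. Bub1b, which encodes BUBR1, had 80.3, 83.5, 85.8 and 90.3 CPM in TSA and 67.0, 96.6, 62.5 and 54.1 CPM in Vehicle (0.28 ± 0.14, edgeR adjusted p = 0.151). Vehicle 2 was above every TSA library and the other Vehicle libraries were below all of them. Bub3, which binds both BUB1 and BUBR1, changed by −0.07 ± 0.09, and Cdc20, the activator of the APC/C that MAD2 holds back, by −0.20 ± 0.12, neither called. The log2 ratio of Bub1b to Mad2l1 was 1.25, 1.20, 1.33 and 1.25 in TSA 1 to 4, against 0.05, 0.43, −0.17 and −0.67 in Vehicle 1 to 4. The difference of 1.35 exceeded the spread in both groups (two-sided exact permutation p = 0.0286, adjusted p = 0.0763 over the 24 pairs). The groups overlapped for Bub1 to Mad2l1, with mean log2 ratios of 0.19 ± 0.17 in TSA and −0.29 ± 0.29 in Vehicle (SD, n = 4 each), and for Bub1b to Bub3, with −0.39 ± 0.09 in TSA and −0.76 ± 0.29 in Vehicle.

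**Figure D2:**
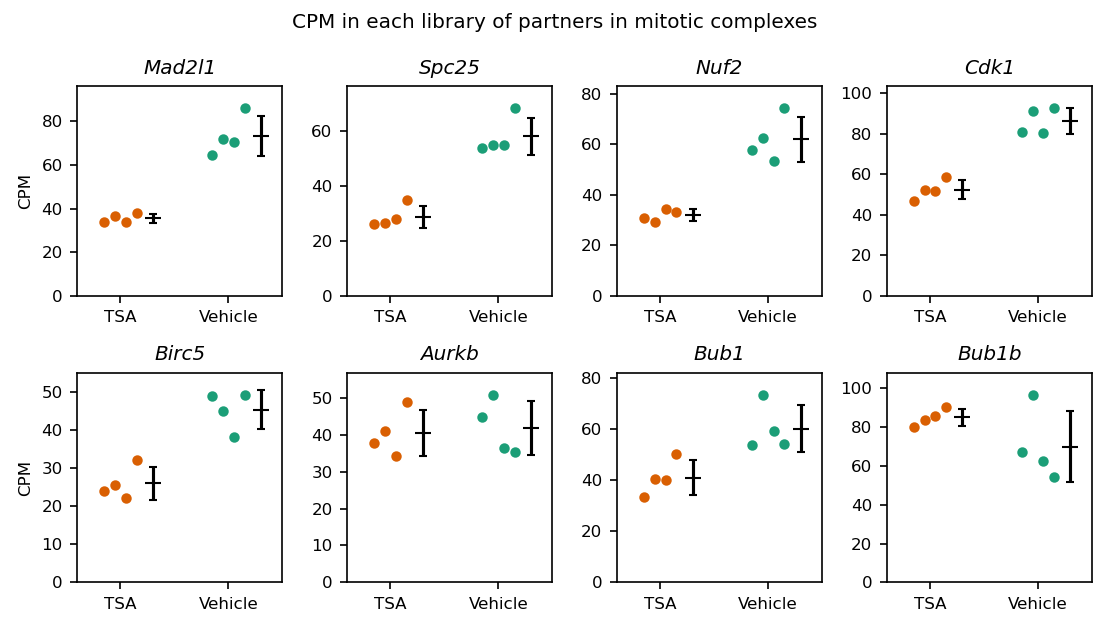
CPM of 8 genes in each TSA (orange) and Vehicle (green) library, with the mean and SD of 4 libraries beside them in black. Mad2l1, Spc25, Nuf2, Cdk1, Birc5 and Bub1 lie lower in all TSA libraries, whereas the groups overlap in Aurkb and Bub1b.

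In the centromere and kinetochore set 4 of 7 genes fell and 0 rose. Ndc80, Nuf2 and Spc25 encode subunits of the NDC80 complex, the main microtubule receptor of the kinetochore. Spc25 (chromosome 2, 69193895 to 69206213), whose promoter is printed above, had 26.1, 26.4, 28.1 and 34.7 CPM in TSA, against 53.8, 55.0, 54.9 and 68.1 CPM in Vehicle (−1.002 ± 0.12, edgeR adjusted p = 5.55e-05). Nuf2 (chromosome 1, 169497934 to 169531464) had 30.8, 29.3, 34.4 and 33.3 CPM in TSA, against 57.8, 62.5, 53.4 and 74.1 CPM in Vehicle (−0.95 ± 0.11, edgeR adjusted p = 5.55e-05). In both genes the groups were separated by a wide gap. Ndc80 fell less, with 17.8, 17.1, 18.5 and 22.3 CPM in TSA and 20.1, 32.0, 26.7 and 23.5 CPM in Vehicle (−0.43 ± 0.15, edgeR adjusted p = 0.0328). Its groups overlapped, and the call was lost without any 1 of Vehicle 2, Vehicle 3, TSA 1, TSA 2 or TSA 3 (adjusted p from 0.0687 to 0.107). The log2 ratio of Ndc80 to Spc25 was −0.54, −0.63, −0.60 and −0.64 in TSA 1 to 4, against −1.42, −0.78, −1.04 and −1.53 in Vehicle 1 to 4 (two-sided exact permutation p = 0.0286, adjusted p = 0.0763 over the 24 pairs). The ratio of Nuf2 to Spc25 overlapped, with means of 0.16 ± 0.15 in TSA and 0.09 ± 0.10 in Vehicle (SD, n = 4 each). Spc24, the remaining subunit of that complex and a gene of the wider lists described below, also fell (−0.71 ± 0.15, edgeR adjusted p = 0.00263).

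Cenpa, the histone H3 variant that marks centromeres, had 54.9, 56.4, 46.4 and 60.5 CPM in TSA, against 109, 69.4, 66.1 and 99.8 CPM in Vehicle (−0.66 ± 0.15, edgeR adjusted p = 0.00489). Vehicle 1 and Vehicle 4, the libraries with the highest mitochondrial share, stood above the other Vehicle libraries. Without these libraries the change of Cenpa was −0.32 (edgeR adjusted p = 0.0384). The large outer kinetochore genes were not called. Cenpe, a kinetochore motor gene, changed by 0.06 ± 0.13, Cenpf, which recruits motor proteins, by 0.20 ± 0.17, and Knl1, the scaffold that binds BUB proteins, by −0.12 ± 0.13.

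Among the genes of chromosome structure 0 of 6 fell and 1 rose. Mki67, which encodes the chromosome-coating protein Ki-67 (chromosome 7, 135689784 to 135716450), had 309, 325, 311 and 373 CPM in TSA, against 224, 324, 195 and 178 CPM in Vehicle. Vehicle 2 lay within the TSA range, so the groups overlapped, and the log2 change was 0.52 ± 0.16 (edgeR adjusted p = 0.0205). The call ended without Vehicle 3, Vehicle 4 or TSA 4 (adjusted p = 0.0625, 0.0707 and 0.0672). It also ended without both Vehicle 1 and Vehicle 4, where the change of Mki67 was 0.34 (edgeR adjusted p = 0.202), and with Xist status as a factor (0.70, 0.079). Top2a, which encodes the topoisomerase of mitotic chromosomes, was not called, with 325, 327, 317 and 379 CPM in TSA and 269, 459, 324 and 228 CPM in Vehicle (0.08 ± 0.17). The condensin genes were not called either, and changed by −0.31 ± 0.12 for Smc4, −0.29 ± 0.13 for Smc2, −0.27 ± 0.13 for Ncapg and 0.08 ± 0.12 for Ncapd2.

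Among the spindle and cytokinesis genes 2 of 7 fell and 0 rose. Hmmr, which encodes a spindle assembly factor, had 24.7, 27.0, 31.6 and 33.7 CPM in TSA and 35.4, 50.2, 36.3 and 33.3 CPM in Vehicle (−0.40 ± 0.14, edgeR adjusted p = 0.0384). Ect2, the exchange factor that activates RhoA at the cleavage furrow, had 45.7, 55.2, 58.3 and 63.1 CPM in TSA and 61.1, 95.7, 72.3 and 63.3 CPM in Vehicle (−0.39 ± 0.14, edgeR adjusted p = 0.0443). Both overlapped between the groups, and both calls ended without Vehicle 2 (adjusted p = 0.103 for Hmmr and 0.108 for Ect2), without TSA 1 (0.125 and 0.147) and without TSA 2 (0.117 and 0.102). The call of Ect2 also ended without Vehicle 3 (0.074), without TSA 3 (0.0653), without Vehicle 2 and TSA 4 (0.055), with DESeq2 size factors (0.0521) and with limma-voom (0.0599), so that it was kept in 10 of 19 settings. The 5 genes not called ranged from −0.36 ± 0.15 for Nusap1, a microtubule bundling gene, to 0.06 ± 0.20 for Tpx2, which activates Aurora A. Aspm, a spindle pole gene whose loss causes small brains in human and mouse, changed by −0.13 ± 0.11, the midzone gene Prc1 by 0.03 ± 0.16 and the contractile ring gene Anln by −0.12 ± 0.14.

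Most of the 40 genes also moved together from library to library within a group, although the most strongly fallen ones did not follow the others in Vehicle. Vehicle 2 held the highest level of all 8 libraries in 31 of the 40 genes, and TSA 4 the highest of the 4 TSA libraries in 36. Mad2l1, Spc25, Nuf2, Birc5 and Cdk1, which had the largest falls, were instead highest in Vehicle 4. In that library 12 of the 40 genes had their lowest level of all 8. The shares over all tested genes were not computed. Summed over the 40 genes, the level was 2789, 2950, 2846 and 3315 CPM in TSA 1 to 4, against 2991, 4018, 3053 and 2777 CPM in Vehicle 1 to 4, and the groups overlapped. Without Vehicle 2 the fit gave 12 falls and 6 rises, the risen genes being Mki67, Plk1, Bub1b, Cenpf, Top2a and Prc1, and the median log2 change was −0.09. Without Vehicle 2 and TSA 4, a setting chosen after seeing the data, there were 14 falls and 3 rises. Without Vehicle 1 and Vehicle 4, whose mitochondrial share of 2.86% and 3.36% exceeded the 1.48% to 1.71% of the TSA libraries, there were 19 falls and 0 rises and the median was −0.33.

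**Figure D3:**
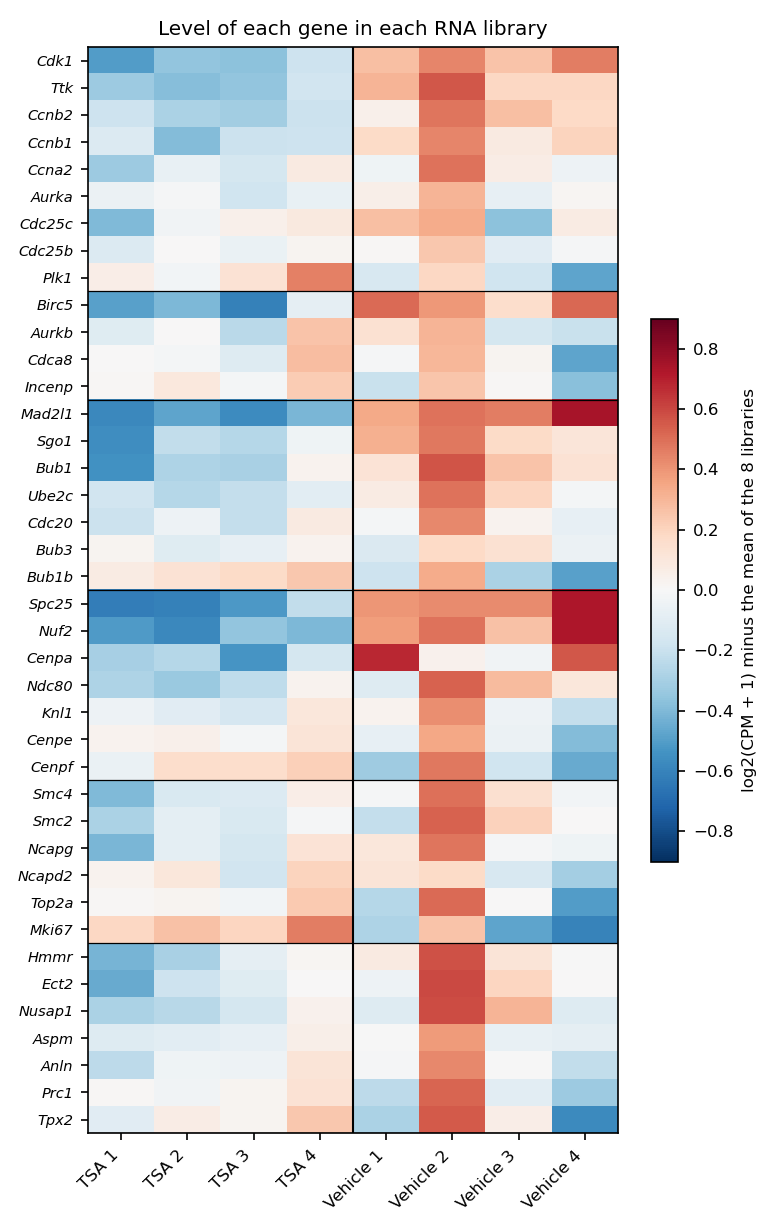
Level of each of the 40 genes in each RNA library, as log2(CPM + 1) minus the gene's mean over the 8 libraries; rows are grouped by role, with TSA libraries left and Vehicle libraries right. The column of Vehicle 2 is red in nearly all rows, and Mad2l1, Spc25, Nuf2 and Cdk1 are blue in every TSA library and red in every Vehicle library.

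Sequencing lanes, as given in the names of the deposited files, did not give equal differences. The median difference over the 40 genes (log2 CPM, TSA minus Vehicle) was −0.16 in lane 1, with TSA 1 and TSA 2 set against Vehicle 1, −0.60 in lane 2, with TSA 3 against Vehicle 2, and 0.04 in lane 3, with TSA 4 against Vehicle 3 and Vehicle 4. With lane as a factor in the edgeR fit the counts were again 15 falls and 1 rise. With Xist status as a factor 4 genes fell and 0 rose, where the share of all tested genes that fell was 5.45%. The median log2 change over the 40 genes was then −0.04, against −0.02 over all tested genes. The 4 genes were Mad2l1 (log2 change −0.94, edgeR adjusted p = 0.0086), Nuf2 (−0.89, 0.0148), Spc25 (−0.74, 0.0193) and Cdk1 (−0.55, 0.0336). Of the 12 genes that lost the call, some had changes close to those without the factor, such as Ccnb1 (−0.43) and Ccnb2 (−0.46), and others had smaller ones, such as Bub1 (−0.25) and Ndc80 (−0.20). In that fit TSA 1 to 3 do not enter the difference between TSA and Vehicle. It is the difference of TSA 4, the single TSA library with Xist, from the Vehicle libraries. The fit therefore cannot separate Xist status from treatment in TSA 1 to 3, and its calls rest on TSA 4 alone. Mad2l1, Nuf2, Spc25 and Cdk1 were called as fallen in all 19 other settings of the RNA analysis.

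Genomic span moved with the change over the whole transcriptome. Median log2 changes over all tested genes were −0.16 under 10 kb, −0.06 from 10 to 25 kb and 0.04 from 25 to 100 kb. For the mitosis genes of these spans they were −0.43 (8 genes), −0.12 (12 genes) and −0.20 (20 genes), which is lower in each class. The rank correlation of span with change across genes was 0.26 over the 40 genes and 0.27 over 14035 genes with a span, given as a description since genes are not independent replicates. With the trend over span removed from each library, 14 of the 40 genes fell and 2 rose, and the median was −0.17.

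Other genes of the same pathway were counted in 7 further lists with 120 genes, all of which were tested. In these lists 51 genes fell and 4 rose, or 42.5% and 3.33%, against 17.6% and 15.4% of all tested genes. The median log2 change over the 120 genes was −0.25, against −0.01 over all tested genes. The remaining kinetochore genes had the highest share, with 17 of 29 fallen and 0 risen. Oip5 and Mis18a, whose products help to load CENP-A at centromeres, fell by 1.301 and by 1.10 on the log2 scale (edgeR adjusted p = 5.4e-05 and 5.76e-05), and Cenpi, of the inner kinetochore, fell by 0.96 (6.5e-05). Of 17 APC/C genes 8 fell and 0 rose, led by the core subunit genes Cdc16 (−0.52 ± 0.08), Anapc10 (−0.69 ± 0.12) and Cdc26 (−0.43 ± 0.09). Of 13 genes of mitotic entry 6 fell and 0 rose, among them Pbk, a mitotic kinase gene (−0.81 ± 0.10), Cks1b, which binds Cdk1 (−0.68 ± 0.11), and Ensa, an inhibitor of the phosphatase PP2A (−0.40 ± 0.08).

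The other lists were mixed. Of 19 transcriptional regulators of G2/M genes 6 fell and 1 rose. Rbbp4, Lin52 and Rbl1 of the DREAM complex fell by 0.73, by 0.60 and by 0.55, Tfdp2, a partner of E2F factors, rose by 0.34, and the activators Foxm1 (−0.10 ± 0.12) and Mybl2 (−0.25 ± 0.14) were not called. Of 16 cohesin genes 4 fell and 1 rose, or 25% and 6.25%, against 17.6% and 15.4% of all tested genes. Esco2, a cohesin acetyltransferase gene, fell by 0.67, the cohesin subunit gene Rad21 by 0.49 and Esco1 by 0.42, and Smc1a, another cohesin subunit gene, rose by 0.46. Among 22 further spindle and cytokinesis genes 8 fell, including the augmin genes Haus2 (−0.63 ± 0.10) and Haus1 (−0.71 ± 0.14) and the abscission gene Cep55 (−0.49 ± 0.10), and Numa1 and Ckap5 rose by 0.46 and by 0.57. Of 4 further condensin genes Ncapg2 and Ncaph2 fell, by 0.43 and by 0.25, and Ncaph (−0.06 ± 0.13) and Ncapd3 (0.00 ± 0.09) were not called.

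H3K9ac was read at the gene starts as peaks that the authors called in each library. A start counted as occupied where a peak overlapped the 1000 bases on either side of it. For the 6 genes without a RefSeq start (Ccna2, Aurkb, Tpx2, Incenp, Cdc25c and Smc4), a peak at either end of the gene was taken. Peaks were found in all 8 lists for 26 of the 40 genes, 22 of the 34 with a start and 4 of the other 6. The 22 of 34 are 64.7%, against 69.9% of the 11059 genes with a start that were tested in RNA. None of the 34 lacked a peak in every list, as 5.52% of those genes did. Per list, 31, 31, 28 and 34 of the 34 starts were occupied in TSA 1 to 4, and 34, 33, 34 and 29 in Vehicle 1 to 4. TSA 3 and Vehicle 4 had the fewest occupied starts and also the shortest lists, of 32248 and 22668 peaks, against 41331 to 61217 in the others. Vehicle 4 nevertheless had the most tags of the 8 libraries, 24075842. Its list held a peak at 73.5% of the starts of tested genes, against 81.4% to 91.7% in the other lists.

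Lists that lacked a peak were unevenly spread over the genes. Of the 34 starts, 9 were occupied in fewer TSA than Vehicle lists, 26.5%, against 5.43% of the genes tested in RNA, and 3 in more TSA lists, 8.82%, against 14.1%. Nuf2, Spc25 and Ect2 lacked a peak in TSA 3 alone, Ube2c and Aspm in TSA 2 alone, and Cenpe in TSA 1 alone. Ccnb2, Bub1 and Cenpf each had a peak in 2 TSA lists and 3 Vehicle lists. Bub1b, Nusap1 and Prc1 lacked a peak in Vehicle 4 alone. With 4 lists against 4, presence at a single start cannot pass a test adjusted over all starts. The shares were not matched for peak strength. With starts lacking a peak included, the 34 starts had a median fold enrichment of 6.12, 5.63, 5.99 and 7.31 in TSA 1 to 4. Tested genes with a peak had 8.31, 7.51, 7.02 and 10.94. In Vehicle 1 to 4 the medians were 8.81, 9.2, 8.5 and 5.61, against 8.81, 8.76, 9.65 and 6.23. The part of weak peaks in the missing ones was not tested.

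The summit of the strongest peak lay downstream of the start in 19 of the 34 genes and upstream in 15, at a median of 111.5 bases downstream over the genes. The summit farthest upstream was at −766.5 bases, in Ncapd2, whose window also holds the start of Mrpl51. In 9 of the 34 genes the window held the start of another gene, so that the peak cannot be assigned to 1 of them.

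Strength was compared as the rank of the largest fold enrichment at a start, within each list, among the 8994 starts occupied in all 8 lists. This set includes 22 of the mitosis genes, and ranks show position relative to other starts and not the amount of acetylation. Top2a stood at the 1.03, 3.07, 1.63 and 13.4 percentile in TSA 1 to 4, against 45.1, 74.7, 52.1 and 13.9 in Vehicle 1 to 4. Ccnb1 stood at 4.07, 5.69, 0.76 and 0.59 in TSA, against 9.08, 17.8, 10.2 and 50.2 in Vehicle. Mad2l1 stood at 4.07, 19.9, 7.65 and 16.3 in TSA, against 25.02, 59.4, 29.1 and 50.2 in Vehicle. In these 3 genes every TSA list was below every Vehicle list, although by a narrow margin in Top2a, and such separation was found in 2.70% of the 8994 starts. Separation in the other direction was found in 0 of the 22 genes and in 2.16% of all starts.

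In a limma fit of these ranks, turned into normal scores, 0 of the 22 mitosis genes were called at an adjusted p under 0.05, and 4 had an unadjusted p under 0.05. Over all starts 0.133% were called, in either direction. An unadjusted limma p under 0.05 was found in 18.2% of the 22 genes and in 8.67% of all starts. The differences (normal score, TSA minus Vehicle) were −1.74 ± 0.41 for Top2a (limma adjusted p = 0.0788), −1.19 ± 0.40 for Ccnb1 (0.275), −1.12 ± 0.43 for Cdk1 (0.403) and −1.004 ± 0.39 for Mad2l1 (0.403). Top2a was called when the pileup replaced the fold enrichment (adjusted p = 0.0377) and without Vehicle 4 (0.0296). Of the 22 differences 17 were negative, with a median of −0.28, where 50.1% of all starts had a negative difference. Cdk1, Ccnb1 and Mad2l1, with lower ranks, were genes whose RNA fell, whereas the RNA of Top2a was not called. Birc5, whose RNA fell, had a difference of 0.21 ± 0.42, and Sgo1, whose RNA also fell, 0.42 ± 0.39.

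**Figure D4:**
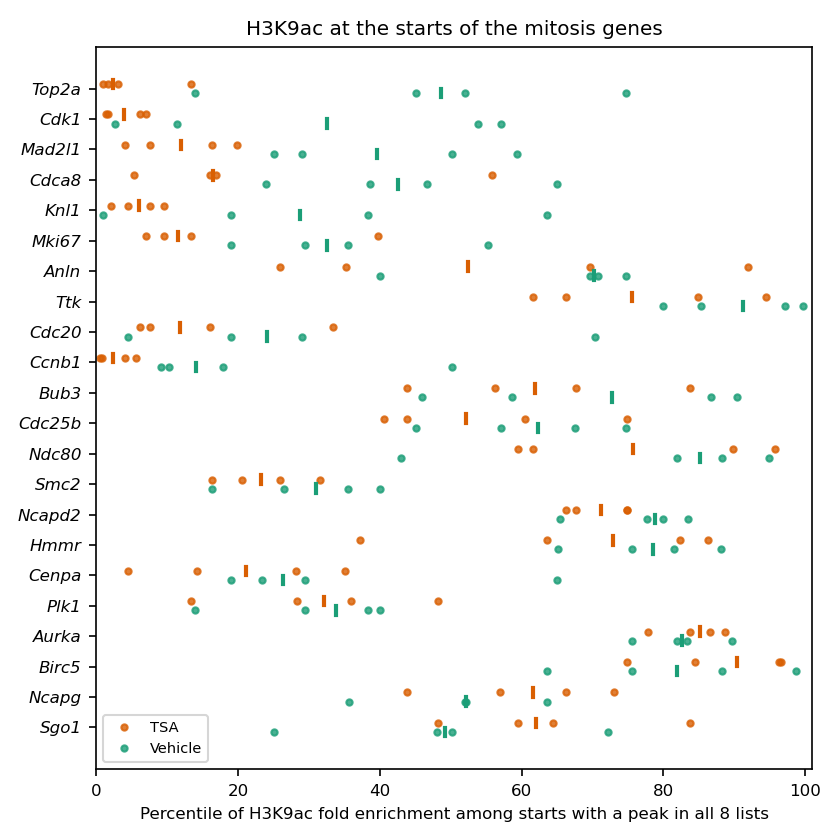
Percentile of H3K9ac fold enrichment in each TSA (orange) and Vehicle (green) list for the 22 mitosis genes with a start peak in all 8 lists, among the 8994 such starts, with short bars at the group medians; genes are ordered by the difference of medians. Top2a, Ccnb1 and Mad2l1 are lower in all TSA lists, and most other genes overlap between the groups.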

How the data were processed

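For RNA the authors deposited raw read counts by Ensembl gene, not normalized. The labels name the TruSeq RNA Sample Preparation v2 Kit, which does not mark strand, so overlapping, antisense or near-identical genes may share reads. The build was mm10, per the submitters' processing notes; no source used here names the aligner or counter. The lines of unassigned reads hold 0. H3K9ac peaks were called per library with MACS2 2.1.0.20140616 at a q-value limit of 0.1 against 1 general input, per the file headers, with 1 tag kept per position and 11824246 to 24075842 tags a library. The deposited pileup signal, fold enrichment (a ratio to local background) and −log10 values (of p-value and of q-value) belong to each list and were used to rank or filter peaks within it.

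Counts were filtered with filterByExpr, scaled by TMM and tested with edgeR 4.0.16 (quasi-likelihood, robust, no covariate) in R 4.3.3, TSA against Vehicle; standard errors are the change divided by the root of F. CPM use TMM-scaled totals. Ranks were fitted with limma 3.58.1. Both fits were tested on simulated data. Count ratios had 1 read added. Gene starts, spans and promoters are from RefSeq on GRCm38.p6. No replicate pair agreed within sampling noise (chi-square per degree of freedom 3.12 to 36). The 40 genes and all lists were chosen with earlier results of these data known. The text gives all libraries for genes called in RNA, the 3 smallest p of each wider list, genes lacking a start peak and the smallest p of the rank fit; ratios, further uncalled genes and genes that went against their list were named after their values were seen. Alternatives were RLE factors, no filter, DESeq2 1.42.0, limma-voom, single libraries left out, replicate block, lane, Xist status, mitochondria-rich libraries left out, span trend, and other windows, peak thresholds and measures. The 2 inputs were not analysed here.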

Additional observations from a re-analysis of the deposited data

Results flagged for a closer look

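A library far from the other 3 of its group was found in 2 of the 80 groups of RNA levels checked (40 genes, TSA and Vehicle) and in 2 of the 44 groups of H3K9ac percentiles, where chance flags about 1 in 20. Spc25 had 68.1 CPM in Vehicle 4, against 53.8 to 55.0 CPM in the other Vehicle libraries. Aspm had 116.872 CPM in Vehicle 2, against 84.5 to 89.2 CPM in the others, in the library that was highest for 31 of the 40 genes. Top2a stood at the 13.4 percentile of H3K9ac in TSA 4, against 1.03 to 3.07 in the other TSA lists. Anln stood at the 40.1 percentile in Vehicle 3, against 69.7 to 74.7 in the other Vehicle lists.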

How the results depend on the processing

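The count of 15 fallen mitosis genes ran from 11 to 18 when single libraries were left out and came to 4 with Xist status as a factor; it stayed within 1.5 times in the other settings. The count of 1 risen gene ran from 0 to 6 when single libraries were left out. It was 2 with no filter and with the span trend removed, 3 without Vehicle 2 and TSA 4 (chosen after seeing the data), and 0 with Xist status and without the mitochondria-rich Vehicle libraries. In the wider lists the 51 falls ran from 37 to 50 with single libraries left out and came to 13 with Xist status. Their 4 rises ran from 3 to 12 with single libraries left out and were 7 with the DESeq2 test, 8 with the replicate block, 1 with Xist status, 2 without the mitochondria-rich libraries and 11 without Vehicle 2 and TSA 4. The cause was not tested. The 16 called genes kept direction in all 304 values over 19 settings and lost the call in 34, of which 12 were with Xist status. Replicate numbers were not taken as pairing the samples, since the labels state no shared origin. Deviations of same-numbered libraries correlated weakly, at 0.097, 0.0851, 0.0696 and 0.111 for numbers 1 to 4. A weak pairing was not excluded, since for 3 of the 4 numbers the library correlated best with its own number in the other group. The replicate block gave 18 falls and 1 rise. The count of 26 genes with a peak in all lists ran from 26 to 30 with single lists left out, and the 0 genes called by H3K9ac rank became 1 with the pileup rank and 0 to 1 with single lists left out. The shallowest RNA library was TSA 1, with 6733415 counts, and the shortest peak list that of Vehicle 4, with 22668 peaks.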
